A study of Mus musculus with 2 samples.

Results

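The 45 genes described here encode proteins that copy the genome and then divide it between daughter cells. They were chosen by name for that function, with no threshold on a measured value but with earlier results of these data known. Of them, 21 act in the G1 to S transition and in DNA replication, and 24 in G2 and mitosis. Of the 45, 44 had at least 1 probe set that the array annotation gives to that gene alone, 101 probe sets in all, against 18193 genes and 45037 probe sets over the whole array. For cyclin B1 (Ccnb1) no probe set was named in the annotation used here, and it is not analysed. A probe set is a group of short probes against 1 transcript, and its signal is a linear intensity.

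The cells were primary osteoblasts, the bone-forming cells, cultured from the calvaria (skull vault) of CD1 mice aged 7 days. Both cultures were first starved of serum for 24 h in medium with bovine serum albumin. One culture then received 2 µM PP1, an inhibitor of c-Src and related tyrosine kinases, for 24 h, and the other received the vehicle DMSO for 24 h. Each condition is 1 array, and the number of mice behind each culture is not given in the sources used here. There are no replicates, so no difference was tested, no p-value is given and each value describes these 2 arrays.

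Cells without serum usually leave the division cycle. In cells that enter it, E2F factors, released from the retinoblastoma protein RB and its relatives, turn on the genes of origin licensing, nucleotide synthesis and the replication fork. Later, the MuvB complex with B-MYB and FOXM1 turns on the genes of mitosis, and in resting cells the DREAM complex, which contains MuvB, holds them down. E2F binds elements rich in C and G, and MuvB binds an element called CHR (cell cycle genes homology region), often close to CCAAT boxes that bind the factor NF-Y.

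The promoter sequences of the 45 genes show this division by phase. RefSeq windows of 300 bases (250 before and 50 after an annotated start, build GRCm38.p6) were available for 36 of the 45 genes, as 38 windows. They were searched on both strands for exact words. The words taken for E2F were 4: the best known, TTGGCGC, then its variant TTCCCGC, then a variant spelled TTCGCGC, then finally the variant TTGCCGC. The word taken for the CHR was TTTGAA, and the CCAAT box was searched as spelled. An E2F word lay in the windows of 11 of 17 G1/S genes (64.7%) and of 3 of 19 G2/M genes (15.8%), against 19.2% of 9797 measured genes with a window and 10.9% of all 27025 genes with one. The CHR word showed the opposite division, in 14 of 19 G2/M genes (73.7%) and 1 of 17 G1/S genes (5.88%), against 14.2% of measured genes and 20.2% of all genes. All 14 of those G2/M genes held CCAAT too, which was present in 18 of 19 G2/M genes (94.7%), 10 of 17 G1/S genes (58.8%), 42.7% of measured genes and 41.1% of all. A word is a match of letters and is not shown to be a binding site. E2F words on opposite strands can overlap, as they do in Mcm6. Some windows lie inside the gene, with those of E2f1, Cdc6, Aurka and Pola1 placed 466, 442, 316 and 232 bases past the outermost start. The 2 of Mcm7 were placed 228 and 845 bases past it, and some others less far.

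The next 4 windows show the E2F and CHR words in capitals, 5′ to 3′ along the gene. Mcm6 has the most E2F words, Cdt1 had the lowest log2 ratio among genes whose probe sets were all lower in G1/S, Cdk1 holds both kinds of word, and Plk1 had the highest log2 ratio of the G2/M genes. The choice was made after the words had been counted. They lie at chr1:128359656-128359955 (minus strand, Mcm6), chr8:122567765-122568064 (plus strand, Cdt1), chr10:69352863-69353162 (minus strand, Cdk1) and chr7:122159185-122159484 (plus strand, Plk1).
Mcm6: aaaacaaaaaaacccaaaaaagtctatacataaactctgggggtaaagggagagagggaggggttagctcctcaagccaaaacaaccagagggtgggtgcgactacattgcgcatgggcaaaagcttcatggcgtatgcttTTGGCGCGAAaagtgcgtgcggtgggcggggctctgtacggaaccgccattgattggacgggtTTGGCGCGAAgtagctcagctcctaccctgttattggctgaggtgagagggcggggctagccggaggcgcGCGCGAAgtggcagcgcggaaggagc
Cdt1: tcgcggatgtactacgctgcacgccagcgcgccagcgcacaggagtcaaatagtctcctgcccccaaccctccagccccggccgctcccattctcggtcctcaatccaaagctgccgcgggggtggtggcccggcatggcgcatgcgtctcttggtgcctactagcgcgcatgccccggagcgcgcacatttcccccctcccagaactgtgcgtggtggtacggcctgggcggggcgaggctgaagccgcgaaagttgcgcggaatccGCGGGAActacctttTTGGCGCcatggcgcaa
Cdk1: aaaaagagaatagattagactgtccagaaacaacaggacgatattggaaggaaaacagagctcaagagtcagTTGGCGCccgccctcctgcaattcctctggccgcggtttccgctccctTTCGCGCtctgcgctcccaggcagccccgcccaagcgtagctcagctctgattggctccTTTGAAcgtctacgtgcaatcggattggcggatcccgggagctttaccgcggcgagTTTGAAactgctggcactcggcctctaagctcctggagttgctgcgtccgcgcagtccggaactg
Plk1: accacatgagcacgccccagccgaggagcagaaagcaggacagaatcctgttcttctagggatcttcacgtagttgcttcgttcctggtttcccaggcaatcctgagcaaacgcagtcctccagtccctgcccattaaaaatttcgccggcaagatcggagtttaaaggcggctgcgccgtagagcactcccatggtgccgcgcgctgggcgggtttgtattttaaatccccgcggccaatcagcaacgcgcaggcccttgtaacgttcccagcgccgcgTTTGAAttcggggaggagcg

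In Mcm6 the 5 E2F words include 2 overlapping pairs, whose first words begin 109 and 46 bases before the start. The 2 E2F words of Cdt1 begin 19 and 34 bases into the transcript. Cdk1 has E2F words at 178 and 130 bases before the start and CHR words at 71 and 15 bases before it. The CHR word of Plk1 begins at base 31 of the transcript, downstream of a CCAAT box at 14 bases before the start. Over all G2/M windows, 13 of 18 CHR words began within 50 bases of the annotated start, with a word shared by overlapping windows counted once.

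**Figure D1:**
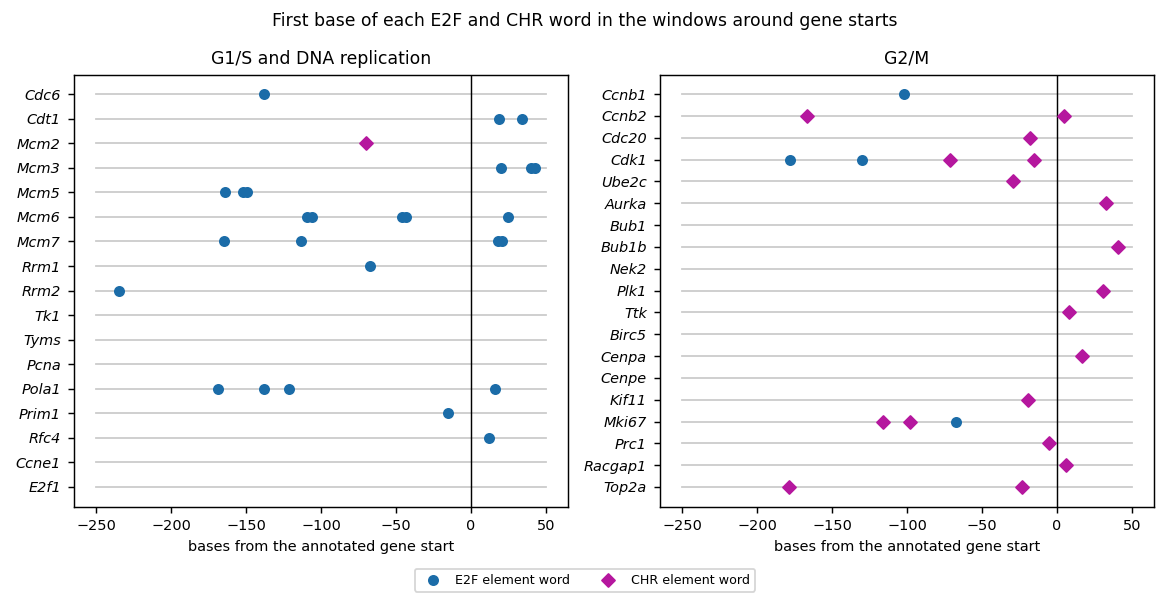
Position of the first base of each E2F word (blue circles) and CHR word (purple diamonds), in bases from the annotated gene start, for 17 G1/S genes on the left and 19 G2/M genes on the right. Each grey line is the window of 250 bases before and 50 after the start. E2F words lie mostly in the left panel, in 11 of its genes, and CHR words mostly in the right, in 14 of its genes. Most CHR words of the right panel lie close to the start, and rows without a symbol hold neither word.

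The whole-array values that touch these results are few. The PP1 array was dimmer, with a trimmed mean of 94.1 against 158.1 on the DMSO array, and its signals were multiplied by 1.68 to bring both to the same mean after trimming 2% at each end. All PP1 signals below are scaled in this way, and each log2 ratio is PP1 over DMSO and relative to the bulk of genes. The floor was a signal of 31.7, the median over all probe sets of the pair of arrays, and dimmer signals were raised to it before ratios were formed. Where a gene had several probe sets, the brightest stands for it, and the log2 ratios of others above the floor are given beside it. As a yardstick in place of a replicate error, the log2 ratio varied between probe sets of a gene with an SD of 0.41 over 4745 genes. The same SD was 0.35 over 24 genes of replication and mitosis, and it does not cover variation between cultures. RNA quality was read from control probes at the 3′ and 5′ ends of a transcript, whose log2 ratio was 0.19 with PP1 and 0.70 with DMSO for Gapdh, 0.69 with PP1 and 0.55 with DMSO for Actb, and 1.46 with PP1 and 1.80 with DMSO for Pcx. The part of this difference in the results was not tested.

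Nearly the whole set was above the floor in the starved cultures, by the brightest probe set of each gene. Of the 101 probe sets, 23 were at the floor on both arrays. There is no array of cells kept in serum, so whether starvation lowered these signals, or whether the cells still divided, was not tested. Of the 44 genes with a probe set of their own, 43 (97.7%) were above the floor on the PP1 array and 43 (97.7%) on the DMSO array, against 64.7% and 62.7% of all 18193 genes. At 4 times the floor, a signal of 126.9, stood 41 of the 44 genes (93.2%) with PP1 and 39 (88.6%) with DMSO, against 43.7% and 42.7% of all genes. Above the 75th percentile of all probe sets, a signal of 161.2, stood 38 of the 44 (86.4%) with PP1 and 37 (84.1%) with DMSO, against 39.0% and 38.7% of all genes. By phase, all 23 G2/M genes and 18 of 21 G1/S genes reached 4 times the floor with PP1, against 22 of 23 and 17 of 21 with DMSO. Signals of different genes depend on their probes and are not ranked here, and in a culture fewer cells of a kind and less RNA per cell cannot be told apart.

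Thymidylate synthase (Tyms), which makes the thymidine nucleotide for DNA, was the gene not measured. Its 4 own probe sets were under the floor on both arrays. A further probe set, which the annotation gives to Tyms and its pseudogene Tyms-ps together, had a signal of 365 with PP1 and 417 with DMSO (log2 ratio -0.19). The pseudogene's share in that signal was not tested.

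**Figure D2:**
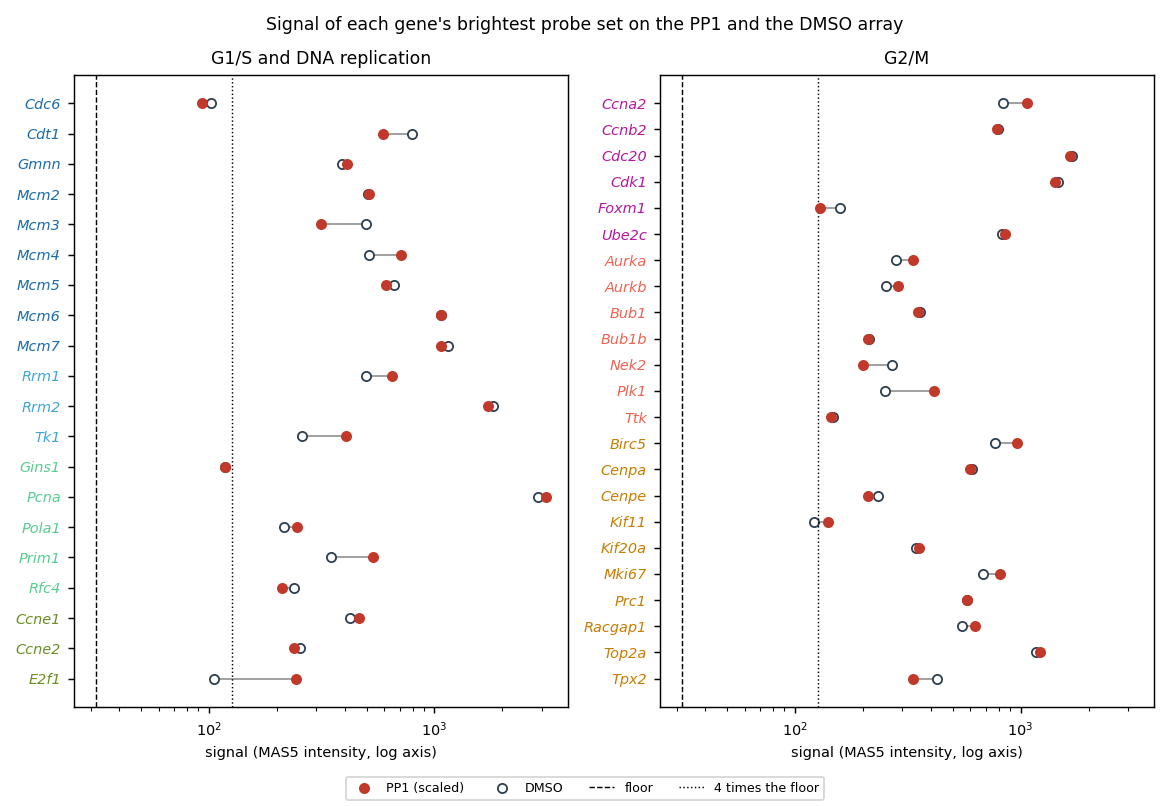
Signal of the brightest probe set of each of 43 measured genes on a log axis, with the PP1 array (scaled, red) and the DMSO array (open circles), for 20 G1/S genes on the left and 23 G2/M genes on the right; label colours mark the roles described in the text. All points lie right of the floor of 31.7 (dashed), and only Cdc6, Gins1 and, with DMSO, E2f1 and Kif11 lie left of 4 times the floor (dotted).

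Between PP1 and DMSO the set stayed close to the bulk of genes. Of 43 measured genes, 23 had a log2 ratio above 0 and 20 below, with a median of 0.01, beside 0.01 over all 12133 measured genes. The median was 0.01 for the 20 G1/S genes, of which 12 were above 0, and -0.00 for the 23 G2/M genes, of which 11 were above 0. At least 1.5-fold higher with PP1 were 4 genes, E2f1, Tk1, Prim1 and Plk1, where 10.6% of all measured genes were so. At least 1.5-fold lower was 1 gene, Mcm3, where 7.38% of all measured genes were so. E2f1 alone was 2-fold higher and 0 genes were 2-fold lower, beside 3.02% and 1.55% of all measured genes. Among the 41 genes that reached 4 times the floor, the 1.5-fold counts were again 4 higher and 1 lower, beside 9.09% and 7.94% of 8298 genes as bright. These shares are near those of all genes, so they are no result about the set. With the arrays centred on their medians instead, where the median of all measured genes was -0.16 and that of the set -0.17, 1 gene was 1.5-fold higher and 3 were 1.5-fold lower.

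By median size and quartiles, the spread of the ratios was smaller than that of all genes, as a description of these arrays. The median size of the log2 ratio, without its sign, was 0.13 over the 43 genes, beside 0.27 over all measured genes and 0.27 over those at 4 times the floor. The quartiles of the G2/M genes were -0.04 and 0.20, those of the G1/S genes -0.11 and 0.24, and those of all measured genes -0.25 and 0.30. Within 1.5-fold lay 22 of 23 G2/M genes (95.7%) and 16 of 20 G1/S genes (80.0%), beside 82.0% of all measured genes. By that count the spread of the G1/S genes was not smaller. All these values rest on the brightest probe sets. Another probe set lay past 1.5-fold for 6 genes within it, and within 1.5-fold for 3 genes past it.

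**Figure D3:**
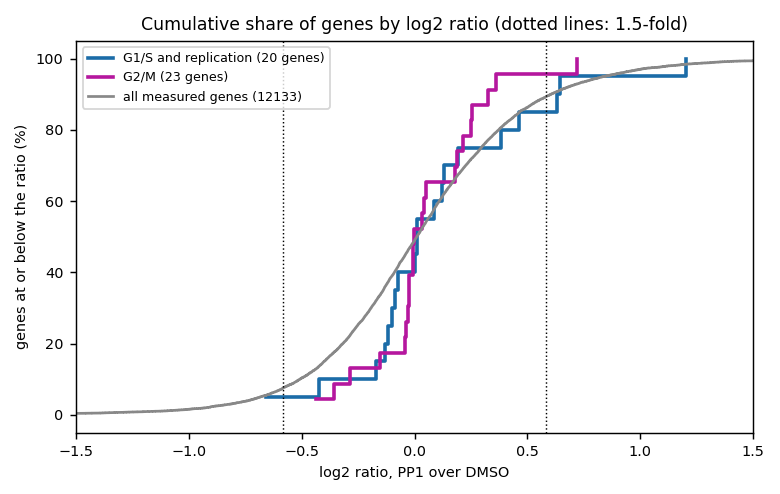
Cumulative share of genes (vertical axis, percent) by log2 ratio of PP1 over DMSO, for 20 G1/S genes (blue), 23 G2/M genes (purple) and 12133 measured genes (grey), with dotted lines at 1.5-fold. The curves cross 50% close to 0, and the G2/M curve is the steepest, with 1 gene, Plk1, beyond 1.5-fold.

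Origin licensing loads the MCM helicase, a ring of the subunits MCM2 to MCM7, onto replication origins before S phase. Mcm6 had a signal of 1073 with PP1 and 1063 with DMSO, level by both of its probe sets above the floor (log2 ratios 0.01 and 0.00). Mcm2 had 513 with PP1 and 509 with DMSO (0.01) by its brightest probe set, but 383 with PP1 and 512 with DMSO (-0.42) by a second of similar brightness, so it was level by only the first. Mcm7 had 1069 with PP1 and 1147 with DMSO (-0.10, but 0.13 to 0.63 by its 3 others), and Mcm5 had 608 with PP1 and 660 with DMSO (-0.12, but 0.42 by its other), so neither direction is settled. Mcm4 was the highest subunit, with 708 with PP1 and 514 with DMSO (log2 ratio 0.46, and 0.19 by its other probe set). Mcm3 was the lowest, with 313 with PP1 and 495 with DMSO (log2 ratio -0.66). The subunit's direction depends on the probe set, because the 4 other probe sets of Mcm3 above the floor gave ratios above 0, up to 0.62. The 6 subunits had a median of -0.05, with 3 above 0 and 3 below.

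CDC6 and CDT1 bring the MCM ring to the origin, and geminin (Gmnn) blocks CDT1 once replication has begun. Cdt1 had a signal of 593 with PP1 and 794 with DMSO, a log2 ratio of -0.42, and its other probe set above the floor gave -0.69. Both of its probe sets were lower with PP1, and its ratio was past 1.5-fold by the second of them. Cdc6 was dim, with 93.7 with PP1 and 102.5 with DMSO (log2 ratio -0.13). Gmnn stood at 412 with PP1 and 388 with DMSO (log2 ratio 0.09), so the loader Cdt1 was lower and its inhibitor was near 0.

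Ribonucleotide reductase makes the DNA precursors from a large subunit, RRM1, and a small subunit, RRM2, and thymidine kinase (Tk1) salvages thymidine. Rrm1 had a signal of 651 with PP1 and 499 with DMSO (log2 ratio 0.38). Its second probe set gave 1.21, from 521 with PP1 and 225 with DMSO, so both were higher and the size is uncertain. Rrm2 had 1722 with PP1 and 1814 with DMSO (log2 ratio -0.07), and its 3 probe sets ran from -0.33 to 0.35, on either side of 0. Tk1 was higher, with 405 with PP1 and 259 with DMSO (log2 ratio 0.64), by a single probe set.

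At the replication fork, PCNA is the sliding clamp that holds the DNA polymerases, RFC4 is part of the loader of that clamp, POLA1 and PRIM1 belong to the primase complex that starts each new strand, and GINS1 belongs to the active helicase. Pcna had a signal of 3113 with PP1 and 2865 with DMSO (log2 ratio 0.12). Gins1 was level at 117.9 with PP1 and 117.7 with DMSO, and Pola1 stood at 247 with PP1 and 216 with DMSO (0.19). These 3 genes each rested on 1 probe set above the floor. Rfc4 was slightly lower, with 212 with PP1 and 238 with DMSO (-0.17, and -0.28 by its other probe set). Prim1 had 537 with PP1 and 347 with DMSO (0.63), but its other probe set gave -0.21, so its direction is not settled.

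Cyclin E with its kinase CDK2 drives the entry into S phase, and E2F1 is an activator of the genes above. E2f1 was the gene with the highest log2 ratio of the set, with a signal of 244 with PP1 and 106.1 with DMSO (1.20, or 2.30-fold). Its second probe set gave 125 with PP1 and 89.4 with DMSO (0.48), so both were higher, and the third was under the floor on both arrays. The cyclin E genes were near 0, where Ccne1 had 461 with PP1 and 421 with DMSO (0.13, and -0.12 by its other probe set), and Ccne2 had 239 with PP1 and 254 with DMSO (-0.09).

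**Figure D4:**
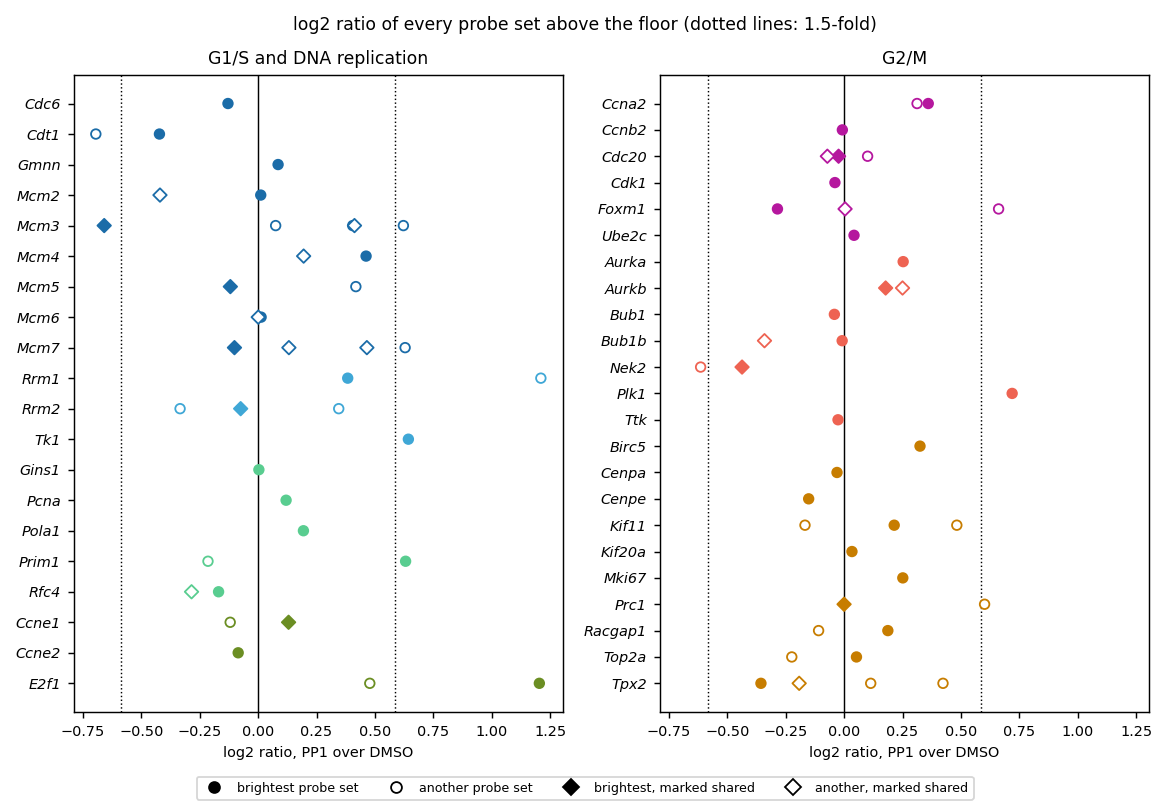
log2 ratio of PP1 over DMSO for the 78 probe sets above the floor on at least 1 array, with 1 row for each of the 43 measured genes; filled symbols are the brightest probe set of a gene, open symbols the others, diamonds those marked as shared between transcripts, and dotted lines 1.5-fold. Most symbols lie between the dotted lines, and several genes, among them Mcm3, Foxm1 and Tpx2, have symbols on either side of 0.

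Cyclins A2 and B2 with the kinase CDK1 drive cells into mitosis, CDC20 and UBE2C act with the ubiquitin ligase APC/C that ends it, and FOXM1 activates many of these genes. Cdk1 had a signal of 1421 with PP1 and 1460.2 with DMSO (log2 ratio -0.04). Ccnb2 had 788 with PP1 and 793 with DMSO (-0.01), and Ube2c had 853 with PP1 and 828 with DMSO (0.04). All 3 were level within a few percent. Cdc20 likewise had 1662 with PP1 and 1689.9 with DMSO (-0.02), with its 3 probe sets between -0.07 and 0.10. Ccna2 was the exception, with 1072 with PP1 and 835 with DMSO (0.36, and 0.31 by its other probe set), higher by both but within 1.5-fold. Foxm1 gave no settled direction, with 129.6 with PP1 and 158.0 with DMSO (-0.29) by its brightest probe set and 0.66 by another.

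The kinases of mitosis include PLK1 and the Aurora kinases, which build the spindle and steer the chromosomes, and NEK2, which separates the centrosomes. BUB1, BUBR1 (Bub1b) and TTK are kinases of the spindle checkpoint, which delays the separation of chromosomes. Plk1 was the highest G2/M gene, with a signal of 414 with PP1 and 252 with DMSO (log2 ratio 0.72), by 1 probe set. Aurka had 335 with PP1 and 281 with DMSO (0.25), and Aurkb had 286 with PP1 and 253 with DMSO (0.18, and 0.25 by its other probe set). Both Aurora kinases were thus slightly higher with PP1, by less than the SD of 0.41 between probe sets. Nek2 was the lowest, with 199.6 with PP1 and 270.3 with DMSO (-0.44, and -0.61 by its other probe set), lower by both. The checkpoint genes were level: Bub1 had 349.7 with PP1 and 360.0 with DMSO (-0.04), Ttk had 145 with PP1 and 148 with DMSO (-0.03), and Bub1b had 211 with PP1 and 213 with DMSO (-0.01, but -0.34 by its other probe set).

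Among genes of chromosomes and the spindle, topoisomerase II alpha (Top2a) untangles DNA, Ki-67 (Mki67) coats mitotic chromosomes and is a common marker of dividing cells, and CENP-A and CENP-E act at the centromere. Mki67 had a signal of 808 with PP1 and 679 with DMSO (log2 ratio 0.25), and Top2a had 1218 with PP1 and 1175 with DMSO (0.05, and -0.22 by a dim second probe set). Survivin (Birc5), a partner of Aurora B, had 964 with PP1 and 769.8 with DMSO (0.32), the highest of this group. All 10 genes lay within 1.5-fold, with 6 above 0, 4 below 0 and a median of 0.04. Cenpa had 596 with PP1 and 609 with DMSO (-0.03), Kif20a had 354 with PP1 and 345 with DMSO (0.03), and Cenpe had 211 with PP1 and 235 with DMSO (-0.15). The spindle motor gene Kif11 had 141.0 with PP1 and 121.6 with DMSO (0.21), and its probe sets ran from -0.17 to 0.48. Of the cytokinesis genes, Racgap1 had 625 with PP1 and 549 with DMSO (0.19, and -0.11 by its other probe set), and Prc1 was level at 579 on both arrays (-0.00, but 0.60 by its other probe set). Tpx2, an activator of Aurora A, was the lowest, with 334 with PP1 and 428 with DMSO (-0.36), while its 3 other probe sets ran up to 0.42.

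Agreement between probe sets was limited. Of 24 genes with 2 or more probe sets above the floor, 10 (41.7%) had them all on the same side of 0, beside 48.8% of 5488 such genes on the array. The 10 were E2f1, Cdt1, Mcm4, Mcm6, Rrm1, Rfc4, Ccna2, Aurkb, Bub1b and Nek2. Of those, Cdt1, Rfc4, Bub1b and Nek2 lay below 0 and the other 6 above it. The side says little for Mcm6 (0.01 and 0.00) and for Bub1b, which was level by its brightest probe set (-0.01). Of the 43 measured genes, 19 rested on a single probe set above the floor, among them Tk1 and Plk1.

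The kind of probe set moved with the result. Names ending in _s_at or _x_at mark probe sets that may also match other transcripts. For all 6 MCM subunits the remaining probe sets gave the higher mean log2 ratio, with a median over the subunits of 0.44, against -0.06 by the probe sets marked as shared. In Mcm6 the difference was only 0.01. Marked probe sets of a gene also differed among themselves, from -0.66 to 0.41 in Mcm3 and from -0.10 to 0.47 in Mcm7. Over the 15 genes of the set with both kinds, the unmarked ones were higher in 13, with a median difference of 0.25. Over all 1749 genes of the array with both kinds they were higher in 61.7%, with a median difference of 0.13. With the shared ones left out, Mcm3 stood at 0.40, Mcm5 at 0.42, Mcm7 at 0.63 and the midzone gene Prc1 at 0.60, in place of -0.66, -0.12, -0.10 and -0.00. Whether other transcripts contribute to these signals was not tested.

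**Figure D5:**
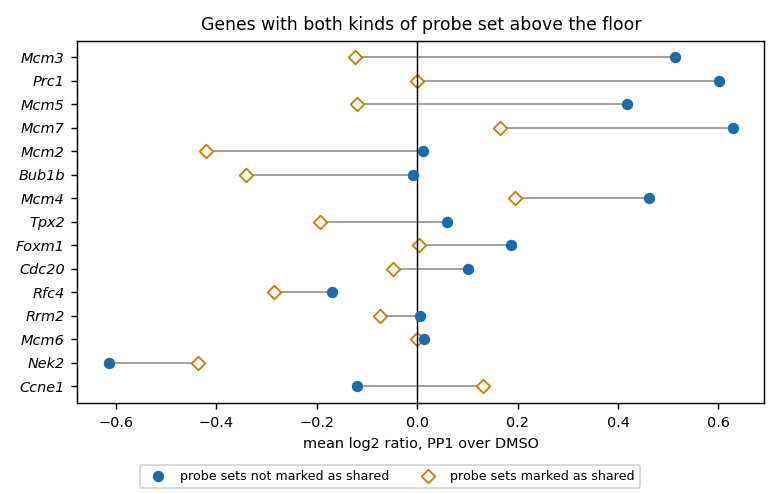
Mean log2 ratio of PP1 over DMSO by probe sets not marked as shared (filled circles) and by probe sets marked as shared (open diamonds), for the 15 genes with both kinds above the floor on both arrays, ordered by the difference. The circle lies to the right of the diamond in 13 genes, the 6 MCM subunits included (by only 0.01 in Mcm6), and to its left in Nek2 and Ccne1.

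Other genes of the same processes, taken from lists by function, had medians near 0 too, but the size of their ratios was near that of all genes. The median size without sign was 0.25 for the further replication genes and 0.25 for the further mitosis genes, beside 0.13 for the 43 genes and 0.27 for all measured genes. Over all measured genes, 6195 of 12133 had a ratio above 0, 10.6% were at least 1.5-fold higher and 7.38% at least 1.5-fold lower. Of 35 further replication genes 33 were measured, with a median log2 ratio of 0.03, 17 above 0, 1 at least 1.5-fold higher and 1 at least 1.5-fold lower. The largest were Dut (-0.91), which removes uracil nucleotides and whose other probe set gave -0.06, the helicase gene Gins2 (0.59, and 0.14), the origin recognition gene Orc1 (-0.57, from 54.9 with PP1 and 81.8 with DMSO, and -0.26 by its other probe set) and Dbf4 (-0.51), the partner of the CDC7 kinase. Of 38 further mitosis genes all were measured, with a median of 0.07 and 20 above 0. At least 1.5-fold higher were 4, near the share of all genes, and 0 were lower to that extent. The 4 were the kinetochore genes Knl1 (0.89, dim at 66.8 with PP1 and 35.9 with DMSO), Spc25 (0.73) and Nuf2 (0.69) and the CDK1 phosphatase gene Cdc25b (0.69), each by 1 probe set above the floor.

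Regulators of these genes were read as well. Of 18 genes of the RB, E2F and MuvB group all were measured, with a median of 0.04. At least 1.5-fold higher was 1 and lower was 1, beside 10.6% and 7.38% of all measured genes. The higher gene was Rbl2, whose product p130 is the RB relative of the DREAM complex, with a signal of 271 with PP1 and 151.4 with DMSO (log2 ratio 0.84, and 1.40 by its other probe set). The lower was the activator E2f3 (-0.65, and -0.07 by its other probe set), followed by the MuvB subunit Lin9 (-0.54, from 52.2 with PP1 and 75.8 with DMSO) and E2f2, which was under the floor with PP1 (-0.38, a bound). Of 13 CDK inhibitors, D-type cyclins and their kinases, 10 were above 0 with a median of 0.23. Beside them, 6195 of 12133 measured genes were above 0, with a median of 0.01. The inhibitor Cdkn1c stood at 1.94, from a dim 47.5 with DMSO, Cdkn1b at 0.53, Cdk2 at -0.52 and Ccnd2 at 0.51, the last with 7 probe sets from -0.29 to 1.25.

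Marker genes of several cell types were read to describe the cultures, and a signal does not show which cells made it. Of 8 osteoblast markers 5 were measured, Col1a1, Col1a2, Alpl, Sp7 and Ibsp, and no probe set was named for Runx2, Bglap or Spp1 in the annotation used here. The collagen gene Col1a1 had 9931 with PP1 and 7558 with DMSO, whereas Ibsp (bone sialoprotein) was near the floor at 37.7 with PP1, against 159 with DMSO. Alpl had 242 with PP1 and 188 with DMSO, and Sp7 a dim 53.3 with PP1 and 71.6 with DMSO. By their brightest probe sets, 3 of the 5 had a log2 ratio above 0 and 2 below. Of 12 macrophage markers all 12 were above the floor on both arrays, 8 with a log2 ratio above 0 and 4 below, with a median of 0.14. Their summed signals were 11400 with PP1 and 9032 with DMSO, of which Lyz2 made up 6297 with PP1 and 4892 with DMSO, and single ratios ran from -0.76 for C1qb to 1.11 for Mrc1. All 8 fibroblast and periosteum markers were measured too, with a median log2 ratio of 0.62, while 5 of 6 skeletal muscle, 3 of 6 endothelial and 0 of 5 erythroid markers were. Of these, the endothelial markers were near the floor, at 55.2 or less on either array. At least 1.5-fold higher with PP1 were 3 of the 5 muscle markers (median over the 5, 0.64 on the log2 scale), beside 10.6% of all measured genes. The 3 were dim with DMSO, with Des at 39.4 and Myod1 (31.6) and Myog (23.7) under the floor, so the last 2 ratios are bounds. The 5 muscle markers summed to 957 with PP1 and 850.2 with DMSO. Acta1 (426 with PP1 and 521 with DMSO) leads that sum and was the only one of the 5 that was lower. The part of any of these cells in the replication and mitosis signals was not tested.

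The directions hold only relative to the bulk of genes. As deposited, without scaling, 43 of 44 genes of the set then above the floor were lower with PP1, with a median log2 ratio of -0.74, and 11375 of 12311 genes of the array were lower too, with a median of -0.71. The gene that was not lower was E2f1, at 0.45, while Tk1, Prim1 and Plk1 were below 0, at -0.11, -0.12 and -0.030.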

How the data were processed

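Total RNA from 1 PP1-treated and 1 DMSO-treated culture was turned into biotinylated cRNA and hybridised to Affymetrix arrays, per the labels' protocols. The deposited values are linear intensity signals per probe set, made by the authors with MAS5, per the submitters' processing notes. Of MAS5, neither version nor target signal is stated in the labels. In all there were 45101 probe sets, 64 of them controls. The platform annotation gave 34945 of the others to 1 gene, 932 to several and 9160 to none here, and symbols were updated through a RefSeq gene table of GRCm38.p6.

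The PP1 array was scaled by 1.68 to equal trimmed means (2% at each end), signals under a floor of 31.7 were raised to it, and ratios were formed on the log2 scale. The brightest probe set (by mean log2 signal over the arrays) stands for a gene, which was measured if that probe set passed the floor on at least 1 array. With 1 array per group, no test was possible, and the number of arrays limits the precision. Counts at 1.5-fold and 2-fold and medians stand beside those of all measured genes. Genes outside the set are named by a rule, up to 4 per list of further replication, mitosis, RB/E2F/MuvB and CDK genes by size of the log2 ratio; markers, and genes said to be so, fall outside it. The genes and lists were chosen with earlier results of these data known. A listed osteoblast marker is not reported here. Promoter words were counted as exact matches. The steps were tested on a PP1 array simulated from the DMSO array with known changes and independent noise. That simulation does not cover RNA quality or variation between cultures. Alternatives were no scaling, median centring, loess, leaving the floor out, raising it to the 75th percentile, a median over each gene's probe sets and dropping those marked as shared. The work used Python 3.11.15, numpy 2.4.6, pandas 2.3.3 and statsmodels 0.14.6.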

Additional observations from a re-analysis of the deposited data

How the results depend on the processing

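With the arrays centred on their medians, the set, its G1/S genes and its G2/M genes had medians of -0.17, -0.16 and -0.18. The median of all measured genes was then -0.16. In all alternatives except the values as deposited, the medians of the set and of its phases moved by less than the spread of 0.41 between probe sets. That spread is between probe sets of a gene and is not the error of a median over many genes. As deposited, the medians of the set, of its G1/S genes and of its G2/M genes were -0.74, -0.74 and -0.75. In that setting 0 of 44 genes were 1.5-fold or 2-fold higher, 29 were 1.5-fold lower and 5 were 2-fold lower. Over the array, 11375 of 12311 genes were lower too. Plk1, Prim1 and Tk1 had log2 ratios of -0.030, -0.12 and -0.11, and the cause was not tested beyond the missing scaling. Centring on the median left 1 of 43 genes 1.5-fold higher and 3 lower. Without probe sets marked as shared, 6 of 42 genes were 1.5-fold higher and 1 lower. With the median over all probe sets of a gene in place of the brightest there were 0 genes 1.5-fold lower and 0 genes 2-fold higher. A floor at the 75th percentile also left 0 genes 2-fold higher, and E2f1 at 0.60 as a bound. Shares of all genes at these folds are not given for the alternatives, so the counts are no result about the set. Mcm3 turned to 0.40 by the median over its probe sets and to 0.40 without probe sets marked as shared, which removes the probe set that made it lowest. Relative to the median of all genes, the median of the set lay between -0.03 and 0.07 over the 7 alternatives. No paired analysis was possible because each group is 1 array, and for the same reason no replicate could be left out. Dim signals, under 4 times the floor on at least 1 array, limit Cdc6, Gins1, Kif11 and E2f1, whose DMSO signal was 106.1.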

Other observations

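In the complexes named here, subunits did not share a direction, by genes chosen after their values were seen. Other complexes of these processes are not described. In the kinetochore, the NDC80 complex binds microtubules, and its subunits Spc25 (log2 ratio 0.73) and Nuf2 (0.69) were higher with PP1 while Ndc80 (-0.04) and Spc24 (0.08) were level, each by 1 probe set above the floor. In the GINS part of the helicase, Gins2 (0.59, and 0.14 by its other probe set) and Gins3 (0.39, and 0.33) were higher. Gins1 was at 0.00 and Gins4 at -0.27. In the clamp loader, Rfc3 (0.50, and -0.11 by its other probe set) and Rfc1 (0.44, and 0.37) were above 0, as was Rfc2 (0.11, and 0.24), and Rfc4 (-0.17) and Rfc5 (-0.17) were below. In the origin recognition complex the ratios ran from -0.57 for Orc1 (-0.26 by its other probe set) to 0.35 for Orc3. The direction of Orc3 is not settled, because its 3 probe sets ran from -0.22 to 0.55. Beside these values stands the SD of 0.41 between probe sets of a gene, and which of them would recur in other cultures was not tested.

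The pocket protein genes also differed from each other. Rbl2 (0.84) and Rbl1 (0.37) were above 0 with PP1 and Rb1 was level at 0.04, with a signal of 618 with PP1 and 602 with DMSO. Rbl1 and Rb1 were chosen after their values were seen, and each rested on 1 probe set above the floor.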
